A study of Mus musculus with 12 samples.

Results

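Fatty acid oxidation was followed through 35 genes of its mitochondrial and peroxisomal branches in RNA sequencing libraries of primary mouse chondrocytes, the cartilage cell type. The genes were taken by symbol from a list of pathway members on the autosomes. All 35 were found among the 57010 gene identifiers counted, and 31 had enough counts to be tested. The 12 libraries fell into 3 groups of 4. All groups were of wild-type genotype. One group was labelled Control, and the labels do not say what these cells received. Another was labelled WT and the last SIRT5F101L mutant (SIRT5F101L here), and both were transfected with the plasmid so named. The labels do not say which gene the wild-type plasmid carried, how many cells took up a plasmid or how long after transfection RNA was collected. The series as a whole concerns SIRT5, a mitochondrial enzyme that removes malonyl, succinyl and glutaryl groups from lysines of other proteins, including several enzymes of fatty acid oxidation.

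Fatty acids are first joined to coenzyme A (CoA) by acyl-CoA synthetases, and the carnitine shuttle then carries long chains across the mitochondrial membranes. Inside, each turn of the oxidation spiral uses an acyl-CoA dehydrogenase, a hydratase, a second dehydrogenase and a thiolase to release acetyl-CoA, and the electrons leave through the electron transfer flavoprotein. Peroxisomes shorten very long and branched chains with enzymes of their own. PPARα, encoded by Ppara, is a nuclear receptor that turns on many genes of both branches, and malonyl-CoA inhibits the first carnitine palmitoyltransferase. Chondrocytes rely mainly on glycolysis and have a low need for fatty acids as fuel.

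The region before the start of the gene is shown for members with large changes in level, chosen with those changes known, because these members and the shared start of Hadha and Hadhb carry the results below. Sequences came from a RefSeq promoter table on GRCm38.p6, which held 29 of the 35 members. It had no entry for Acaa2, Acad9, Cpt1b, Crat, Decr1 or Hsd17b4. For 27 of 29 members, bases after the listed start were found in a GENCODE M21 transcript of the gene. The motif counts below use all 29. The counts were made on GRCm39 per the submitters' processing notes, so these coordinates belong to the sequence table alone. The first 3 sequences are the 250 bases before the start of Cpt1a (chr19:3323051-3323300, plus strand), Acot2 (chr12:83987611-83987860, plus strand) and Acadm (chr3:153944644-153944893, minus strand). Capitals mark a CCAAT box (CCAAT, or ATTGG on the other strand) and a GC box (GGGCGG, or CCGCCC on the other strand). Cpt1a had both boxes, Acot2 the CCAAT box only and Acadm neither. Both boxes were also found in Acsl3 and Crot, called lower in both plasmid groups, in Eci2, called lower in WT alone, and in Acad11, called lower in SIRT5F101L alone. Acsl1, Cpt1c, Ehhadh and Hadh, which were not called, and Acaa1a, which could not be tested, had both as well. Whether the boxes go with the direction of change was not tested.
Cpt1a: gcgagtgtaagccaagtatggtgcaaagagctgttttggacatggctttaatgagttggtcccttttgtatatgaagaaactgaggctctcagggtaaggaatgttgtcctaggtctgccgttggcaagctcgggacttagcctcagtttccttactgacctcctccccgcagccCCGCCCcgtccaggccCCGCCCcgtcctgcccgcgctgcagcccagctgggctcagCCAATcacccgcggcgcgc
Acot2: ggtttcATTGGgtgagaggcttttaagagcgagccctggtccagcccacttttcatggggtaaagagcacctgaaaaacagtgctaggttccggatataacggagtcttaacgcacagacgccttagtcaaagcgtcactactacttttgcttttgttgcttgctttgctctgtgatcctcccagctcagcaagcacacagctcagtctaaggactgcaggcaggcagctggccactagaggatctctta
Acadm: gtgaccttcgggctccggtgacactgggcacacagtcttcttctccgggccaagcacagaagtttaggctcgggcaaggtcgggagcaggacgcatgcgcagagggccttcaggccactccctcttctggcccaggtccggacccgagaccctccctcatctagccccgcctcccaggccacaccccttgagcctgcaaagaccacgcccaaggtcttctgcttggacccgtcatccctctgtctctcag

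Response elements of the nuclear receptors that act on this pathway were searched in the same 250 bases on both strands. The PPAR element is a direct repeat of the AGGTCA site with a single base in between (AGGTCANAGGTCA), and up to 2 mismatches were allowed. It was found in 2 of 29 members (6.90%) and in 3.72% of the 27025 genes in the table. The members were Echs1, with the match 70 bases before its start (chr7:140116469-140116528, minus strand), and Etfa, with the match on the other strand 64 bases before its start (chr9:55512285-55512344, minus strand). Both are shown with 60 bases around the match in capitals.
Echs1: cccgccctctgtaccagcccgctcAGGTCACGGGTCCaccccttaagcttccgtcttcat
Etfa: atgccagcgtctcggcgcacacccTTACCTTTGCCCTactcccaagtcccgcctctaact

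The element of the oestrogen-related receptors (TCAAGGTCA, with 1 mismatch allowed) was found in 1 of 29 members (3.45%) and in 7.27% of all genes. It shares its AGGTCA core with the PPAR element. The member was Acsl5, which rose, and its match lies on the other strand 233 bases before its start (chr19:55253119-55253178, plus strand), shown in capitals.
Acsl5: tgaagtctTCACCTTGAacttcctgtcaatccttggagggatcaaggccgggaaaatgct

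The CCAAT box was present in 15 of 29 members (51.7%) and in 37.5% of all genes. The GC box was present in 21 of 29 members (72.4%) and in 35.4% of all genes. Cpt1a, Acot2 and Acadm had no match to either receptor element in this window. A match is a description of letters and does not show binding.

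Hadha and Hadhb, the α and β subunits of the mitochondrial trifunctional protein, start back to back. The 272 bases between their starts (chr5:30154981-30155252) are shown on the plus strand, which is the direction of Hadhb, with both GC boxes in capitals.
Hadha-Hadhb: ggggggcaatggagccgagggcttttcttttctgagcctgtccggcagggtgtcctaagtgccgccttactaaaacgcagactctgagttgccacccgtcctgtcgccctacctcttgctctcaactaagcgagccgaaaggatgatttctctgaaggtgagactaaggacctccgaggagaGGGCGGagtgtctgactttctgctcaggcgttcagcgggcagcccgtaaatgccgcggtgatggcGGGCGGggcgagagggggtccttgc

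Library totals ran from 15095357 to 24242139 counts, so that 1 count was worth 0.0401 to 0.0649 CPM (the count scaled to library size with edgeR's TMM factors). Sirt5 itself was close to the limit of detection, with 1 to 19 counts in a library. Its mean was 0.688 ± 0.169 CPM in Control, 0.383 ± 0.229 in WT and 0.720 ± 0.346 in SIRT5F101L (SD, n = 4). No difference from Control passed the test (log2 fold change -0.86 with adjusted p 0.143 for WT, and 0.03 with adjusted p 0.954 for SIRT5F101L). No rise of Sirt5 was thus detected in either plasmid group. The 95% interval of its log2 fold change was -1.89 to 0.16 in WT and -0.90 to 0.97 in SIRT5F101L. Rises in counted Sirt5 RNA beyond 0.16 and 0.97 lay outside these intervals, and smaller ones could have been missed. Whether RNA from a plasmid was counted under Sirt5 was not tested. The groups are named below as labelled. Chondrocyte markers, with Chad listed at 0 everywhere, summed to 9193 to 11518 CPM in Control, 2826 to 2942 in WT and 2304 to 2549 in SIRT5F101L, and 11 of 13 tested fell in both comparisons. Acan and Hapln1 were higher in WT (log2 fold change 0.47 and 0.25), and Hapln1 in SIRT5F101L (0.18). Fibroblast markers summed to 29761 to 35675, 9726 to 11134 and 9367 to 10753 CPM in the same order, and 6 of 7 fell in both, while Pdgfra rose (log2 fold change 0.39 and 0.62). Macrophage markers, with Itgam listed at 0, summed to 169 to 202, 84.0 to 96.3 and 84.4 to 108 CPM, and 7 of 7 tested fell in both comparisons. Skeletal muscle markers summed to 10.97 to 11.8, 2.63 to 4.42 and 2.44 to 4.06 CPM, with 3 of 3 tested lower. Osteoblast markers summed to 62.6 to 71.9, 40.8 to 52.5 and 38.9 to 61.2 CPM, with 2 of 4 tested lower in both. Endothelial markers summed to 3.49 to 4.52, 2.60 to 3.75 and 2.93 to 3.91 CPM, with 0 of 4 called by edgeR. Of all genes tested, 28.1% were lower in WT and 30.7% in SIRT5F101L. Lower amounts of an RNA from fewer cells of a type and from less RNA per cell cannot be told apart in bulk samples. The part of these marker shifts in the results below was not tested. The labels do not say whether replicates were separate cultures, so p-values measure only the spread between these libraries.

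Against Control, the pathway did not move as a block. In WT libraries, 4 of 31 members were higher (Acsl5, Cpt1a, Acadl and Acad9) and 11 were lower by edgeR's quasi-likelihood test (Benjamini-Hochberg adjusted p under 0.05 over all 14253 genes). Of all genes tested, 56.8% were called in this comparison, so 15 of 31 members is no more than the background. With each library's trend on transcript length removed, the share of members called in WT was above that of all genes. No test compared these shares. In SIRT5F101L libraries, 3 members were higher (Acsl5, Cpt1a and Acad9) and 12 were lower, where 60.7% of all genes were called. The median log2 fold change of members was -0.10 in WT (-0.01 over all genes) and -0.15 in SIRT5F101L (-0.02 over all genes). At an unadjusted p under 0.05 there were 17 members in WT (61.0% of all genes) and 16 in SIRT5F101L (64.1% of all genes). Changes of at least 0.5 on the log2 scale were called for 5 members in WT and 7 in SIRT5F101L, against 33.7% and 37.1% of all genes. Some of these fell short of 0.5 under other settings, though still called. In SIRT5F101L the weakest values were -0.48 for Echs1, -0.46 for Eci1 and -0.48 for Etfa, and in WT -0.43 for Etfa. How many of all genes fell short in this way was not counted. Groups did not overlap for 13 members in WT (53.5% of all genes) and for 15 in SIRT5F101L (51.3% of all genes).

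Both comparisons used the same 4 Control libraries. Members called in both numbered 13, of which 10 were lower and 3 higher. Of all genes, 56.8% were called in WT and 60.7% in SIRT5F101L. The share of all genes called in both was not counted, so the 13 cannot be set against it. Acadl and Eci2 were called in WT alone, and Acad11 and Etfdh in SIRT5F101L alone. None of these 4 differed between WT and SIRT5F101L when that difference was tested. The calls for 12 members in WT and 13 in SIRT5F101L held under all 19 alternatives tried, and the same was not counted over all genes. The other calls, for Crot, Acadl, Decr1 and Etfdh, were lost under some of them. Conversely, members that did not pass were called under some alternatives, most often the length offset. In WT these were Acaa2 (6 of 19), Acad11 (4), Acadvl (3), and Slc25a20, Hadhb and Acox3 (2 each). In SIRT5F101L these were Cpt1c (5 of 19), Slc25a20 (3), Acadl and Acaa2 (2 each), and Crat, Acadvl, Acad10 and Acox3 (1 each).

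**Figure D1:**
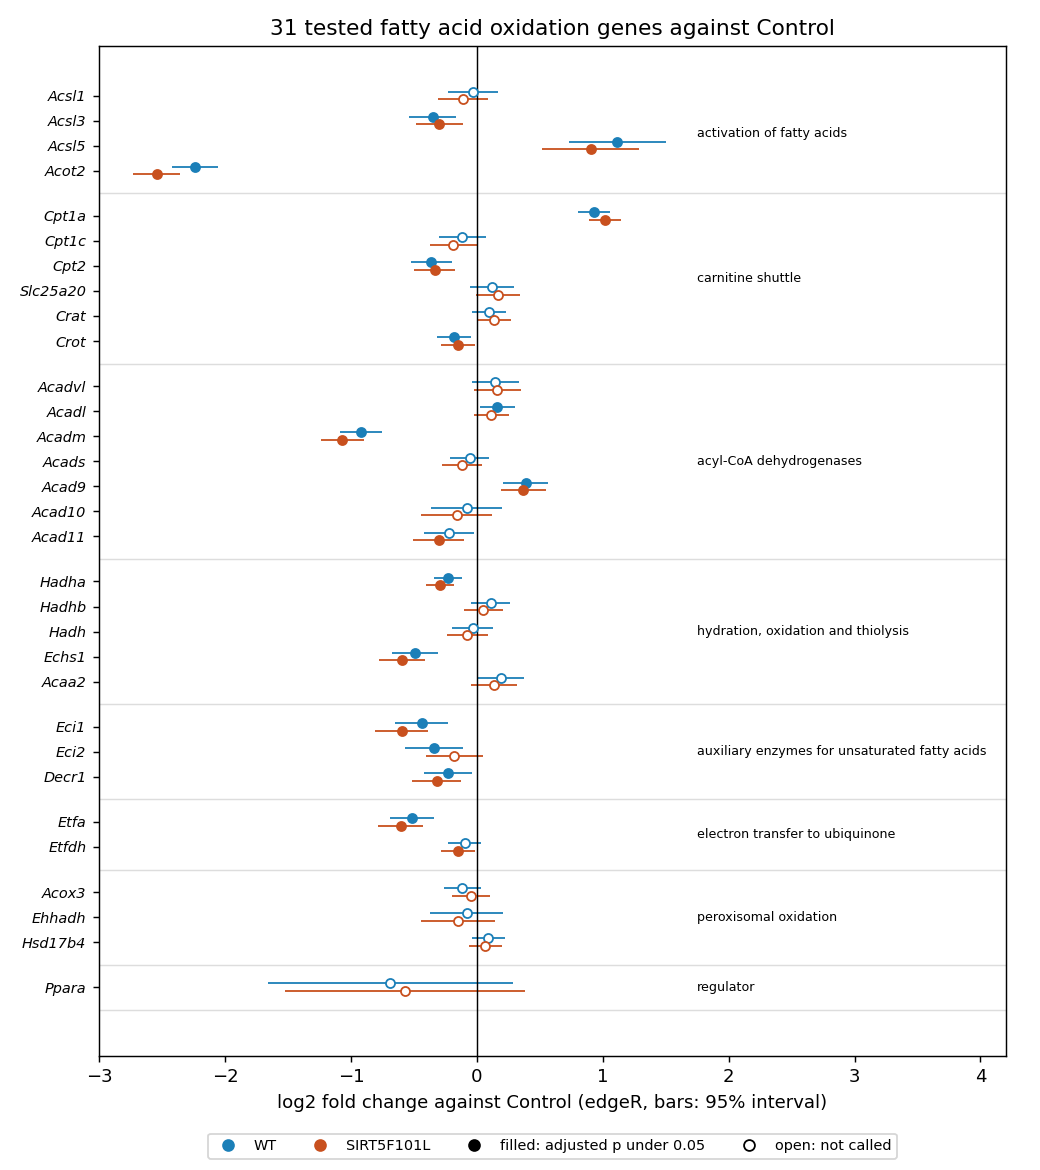
Log2 fold change of the 31 tested members against Control (x axis) by role (y axis), with points for WT and SIRT5F101L, bars for the 95% interval, and filled points where the adjusted p was under 0.05. Acot2 lies far to the left at -2.24 and -2.54, while Cpt1a and Acsl5 lie to the right, and the 3 tested genes of the peroxisomal oxidation group sit around 0.

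Activation of fatty acids held the largest fall of the list in both comparisons and the largest rise in WT. Acot2, a mitochondrial thioesterase that splits long-chain acyl-CoA back into free fatty acid and CoA, was at 59.7, 58.4, 58.6 and 57.7 CPM in the Control libraries. It was at 11.1, 13.3, 12.9 and 12.5 CPM in WT and at 11.8, 8.76, 9.78 and 9.80 CPM in SIRT5F101L. Every Control library was far above every other library, and the Control values were nearly level. Acot2 had a log2 fold change of -2.24 (SE 0.09, adjusted p 1.56e-14) in WT and -2.54 (SE 0.09, adjusted p 2.46e-15) in SIRT5F101L, to 0.212 and 0.172 of the Control level. The sequence of Acot2 is shared in part with its neighbour Acot1: 58.0% of the longest Acot2 transcript matched another gene at 95% identity or more. Acot1, a cytosolic thioesterase, was at 2.54 ± 0.429, 1.84 ± 0.319 and 2.26 ± 0.568 CPM (SD, n = 4) and did not pass the test in either comparison. Reads shared between both copies could not be placed from counts alone.

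Acsl5, an acyl-CoA synthetase of mitochondria and endoplasmic reticulum, was at 7.08, 5.62, 4.79 and 2.78 CPM in Control. It was at 11.2, 11.4, 9.003 and 12.3 CPM in WT and at 10.04, 9.28, 9.62 and 8.95 CPM in SIRT5F101L. All 8 plasmid libraries were above all Control libraries, which spread over a wide range. Acsl5 had a log2 fold change of 1.12 (SE 0.18, adjusted p 2.90e-05) in WT and 0.91 (SE 0.18, adjusted p 0.000273) in SIRT5F101L. Acsl3, a synthetase of the endoplasmic reticulum and lipid droplets, fell from 29.6 ± 1.24 to 23.2 ± 2.95 and 24.1 ± 1.66 CPM (log2 fold change -0.35 and -0.30, adjusted p 0.00254 and 0.00756). Acsl1, the main synthetase of muscle and fat, did not pass the test, at 20.1 ± 1.76, 19.7 ± 1.76 and 18.6 ± 1.59 CPM.

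Within the carnitine shuttle, Cpt1a and Cpt2 went opposite ways, and 3 of 6 tested members were not called in either comparison. Cpt1a, the malonyl-CoA-sensitive transferase of the outer membrane, was at 70.1, 71.8, 71.5 and 68.6 CPM in Control. It was at 140, 134, 133 and 130 CPM in WT and at 130, 145, 140 and 155 CPM in SIRT5F101L. All plasmid libraries lay well above the tight Control group, and the plasmid groups overlapped each other. Cpt1a had a log2 fold change of 0.93 (SE 0.06, adjusted p 5.28e-11) in WT and 1.02 (SE 0.06, adjusted p 1.12e-11) in SIRT5F101L, or 1.90-fold and 2.03-fold. Cpt2, the partner enzyme of the inner membrane, went the other way, from 44.2 ± 3.91 to 34.3 ± 1.89 and 35.03 ± 2.10 CPM (log2 fold change -0.36 and -0.34, adjusted p 0.00053 and 0.000913).

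Cpt1c, the form of this transferase known from neurons and located at the endoplasmic reticulum, was at 61.1, 47.2, 52.1 and 60.3 CPM in Control. It was at 48.1, 54.0, 51.9 and 49.6 CPM in WT and at 52.7, 42.2, 45.6 and 53.0 CPM in SIRT5F101L. The groups overlapped throughout, and neither comparison passed the test (log2 fold change -0.11 and -0.19, adjusted p 0.285 and 0.0759). With SIRT5F101L replicate 1, SIRT5F101L replicate 4 or Control replicate 2 left out, the change in SIRT5F101L passed, at -0.23, -0.23 and -0.26. It also passed with each library's trend on transcript length removed, at -0.19, and at -0.24 with SIRT5F101L replicate 1 left out as well. Cpt1b, the muscle form, was listed at 0 in all 12 libraries. In the GENCODE M21 models, 81.4% of its exon bases overlap the read-through gene model Gm44502 on the same strand.

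Slc25a20, the carrier that exchanges acylcarnitine for carnitine across the inner membrane, did not pass the test, at 42.4 ± 1.96, 46.1 ± 3.795 and 47.6 ± 5.50 CPM. Crat, the carnitine acetyltransferase, did not pass it either, at 60.7 ± 2.16, 64.9 ± 4.42 and 66.7 ± 3.83 CPM. Crot, the peroxisomal octanoyltransferase, fell slightly from 52.2 ± 2.65 to 45.9 ± 2.35 and 46.9 ± 0.868 CPM (log2 fold change -0.18 and -0.15, adjusted p 0.0201 and 0.0472). These calls were weak: 14 of 19 alternatives kept that in WT and 5 of 19 that in SIRT5F101L.

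**Figure D2:**
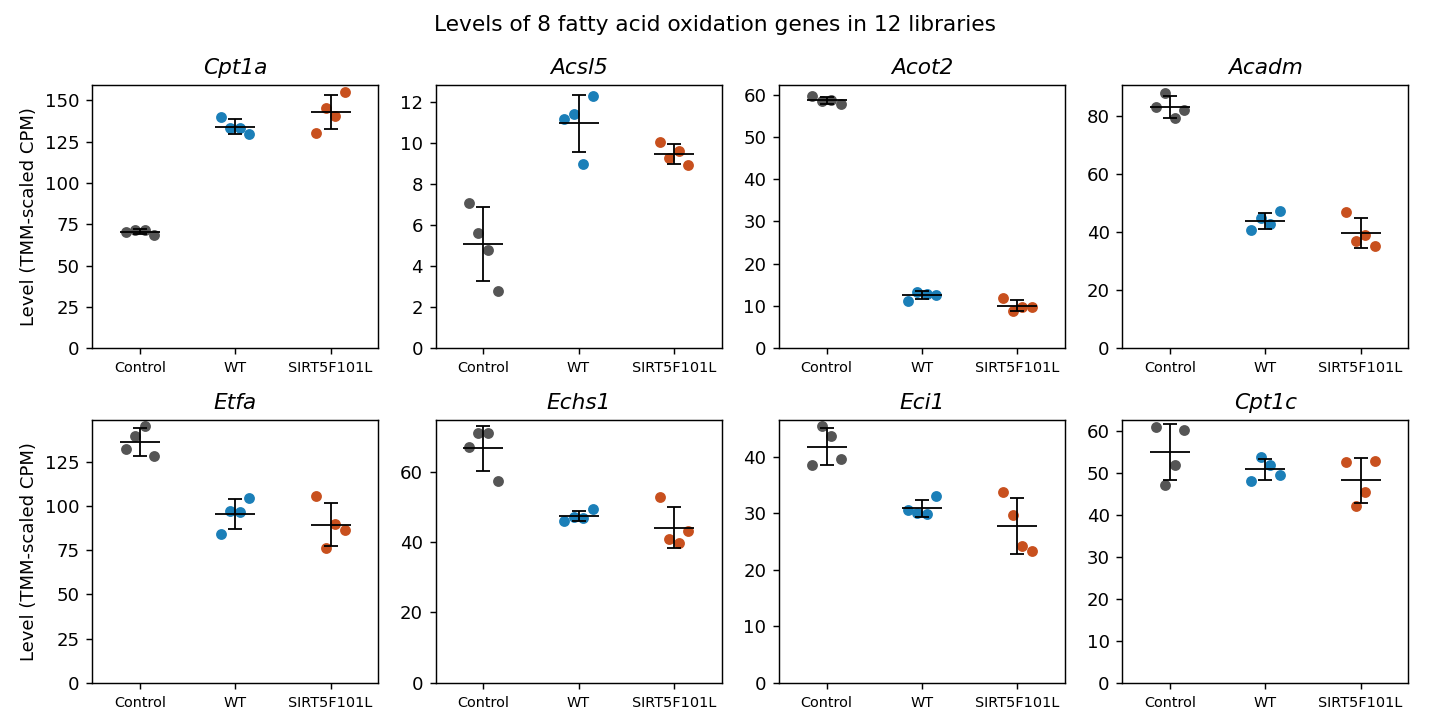
TMM-scaled CPM (y axis, from 0) of 8 members in each of the 12 libraries by group (x axis), with points for libraries, horizontal lines for means and bars for the SD. Cpt1a and Acsl5 are above Control in every plasmid library, Acot2 and Acadm are below, and Cpt1c overlaps.

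Of the acyl-CoA dehydrogenases, which open each turn of the spiral and differ in the chain length they take, Acadm alone changed by 0.5 or more on the log2 scale. Acadm, for medium chains, was at 83.2, 88.1, 79.3 and 82.1 CPM in Control. It was at 40.7, 45.0, 42.9 and 47.2 CPM in WT and at 47.1, 37.1, 39.1 and 35.3 CPM in SIRT5F101L. Every plasmid library was far below every Control library. Acadm had a log2 fold change of -0.92 (SE 0.08, adjusted p 5.83e-09) in WT and -1.07 (SE 0.08, adjusted p 6.06e-10) in SIRT5F101L, to 0.528 and 0.477 of the Control level.

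Neighbouring chain lengths did not follow Acadm. Acadl, for long chains, was slightly higher in WT (67.4 ± 1.67 against 75.5 ± 2.03 CPM, log2 fold change 0.16, adjusted p 0.0425), a call kept in 11 of 19 alternatives. In SIRT5F101L it was at 73.0 ± 7.03 CPM and not called (adjusted p 0.148). Acads, for short chains, did not pass the test, at 41.4 ± 3.31, 39.8 ± 1.78 and 38.1 ± 2.40 CPM. Acadvl, for very long chains, did not pass it, at 50.1 ± 3.25, 55.5 ± 3.82 and 56.1 ± 8.23 CPM. Its exons overlap those of Dvl2 on the opposite strand over 42.9% of their bases, the counting's strand setting is not given in the sources used here, and Dvl2 fell (log2 fold change -0.43 and -0.58).

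Acad9, which also serves as an assembly factor of respiratory complex I, rose from 23.8 ± 1.39 to 31.1 ± 2.96 and 30.7 ± 2.36 CPM (log2 fold change 0.39 and 0.37, adjusted p 0.000662 and 0.000916). In SIRT5F101L it was at 0.20 (adjusted p 0.0383) with each library's trend on transcript length removed and SIRT5F101L replicate 1 left out. Other gene models, mainly Gm43079, match 24.4% of its longest transcript. Gm43079 overlaps Acad9 on the same strand, over 6.82% of the Acad9 exon bases. Acad11, which acts on 4-hydroxy acids, was called lower in SIRT5F101L (10.6 ± 0.343 against 13.1 ± 1.16 CPM, log2 fold change -0.30, adjusted p 0.0099). In WT it was at 11.2 ± 0.447 CPM (log2 fold change -0.22, adjusted p 0.0545). Acad10 did not pass the test, at 11.6 ± 1.25, 11.03 ± 1.64 and 10.4 ± 1.84 CPM. A copy of 45.3% of its longest transcript lies in other genes, mainly its neighbour Acad12, which fell (log2 fold change -0.85 and -0.75). Acadsb, for short branched chains, was listed at 0 in all 12 libraries. For this gene, as for Cpt1b and Acaa1a, the files do not show whether the 0 means that no RNA was present.

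Downstream of the dehydrogenases, Echs1, the short-chain enoyl-CoA hydratase of the matrix, was at 67.1, 71.0, 71.0 and 57.5 CPM in Control. It was at 46.1, 47.1, 46.9 and 49.4 CPM in WT and at 52.8, 40.8, 39.8 and 43.0 CPM in SIRT5F101L. The lowest Control library was above all plasmid libraries, of which SIRT5F101L replicate 1 was the highest. Echs1 had a log2 fold change of -0.49 (SE 0.09, adjusted p 6.77e-05) in WT and -0.60 (SE 0.09, adjusted p 6.69e-06) in SIRT5F101L.

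The trifunctional protein carries hydratase and dehydrogenase activity on its α subunit and thiolase activity on its β subunit. Hadha, the α subunit, fell from 206 ± 6.14 to 176 ± 2.61 and 168 ± 7.01 CPM (log2 fold change -0.23 and -0.29, adjusted p 0.00101 and 7.44e-05). Hadhb, the β subunit, did not pass the test, at 81.7 ± 2.82, 88.1 ± 8.70 and 84.6 ± 6.69 CPM (log2 fold change 0.11 and 0.05). Hadh, the dehydrogenase of medium and short chains, did not pass it, at 60.4 ± 3.98, 59.1 ± 0.723 and 57.3 ± 6.86 CPM. Acaa2, the thiolase of the matrix, was at 58.99 ± 4.58, 67.3 ± 6.97 and 64.9 ± 7.55 CPM (log2 fold change 0.19 and 0.14, adjusted p 0.071 and 0.183).

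Both subunits of the trifunctional protein and both transferases of the shuttle were also set against each other within each library, where scaling between libraries cancels. These pairs were chosen after the values were seen, so no test is given. The log2 ratio of Hadha to Hadhb was 1.34 ± 0.06 in Control (SD, n = 4), 1.01 ± 0.12 in WT and 0.99 ± 0.07 in SIRT5F101L. Its lowest Control library, at 1.29, was above the highest plasmid library, at 1.09. The log2 ratio of Cpt1a to Cpt2 was 0.68 ± 0.11 in Control, 1.97 ± 0.09 in WT and 2.03 ± 0.12 in SIRT5F101L. The Control range ended at 0.80 and the plasmid ranges began at 1.84. Both ratios overlapped between WT and SIRT5F101L.

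**Figure D3:**
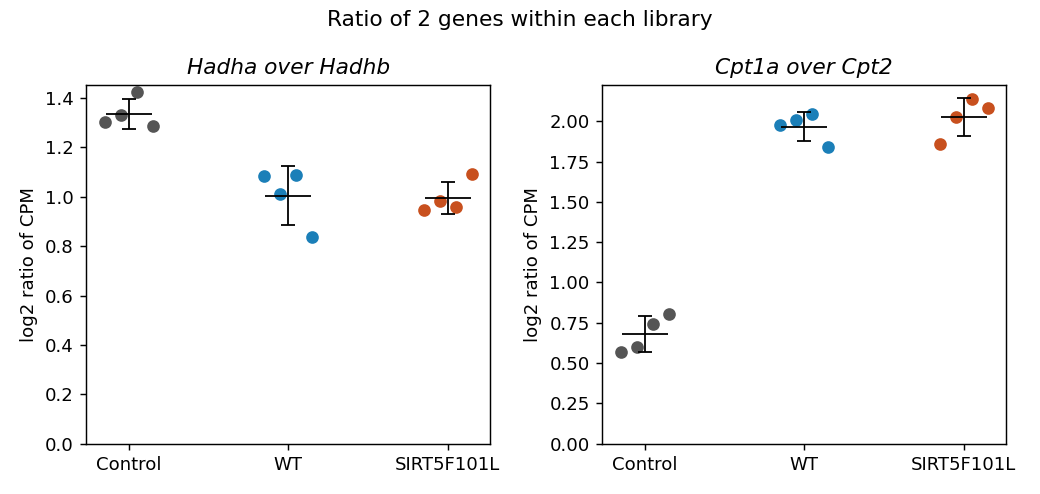
Log2 ratio of the CPM of Hadha to Hadhb (left) and of Cpt1a to Cpt2 (right) in each library (y axes, from 0) by group (x axis), with lines for means and bars for the SD of 4 libraries. Control libraries lie above the others for Hadha to Hadhb and below them for Cpt1a to Cpt2.

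Unsaturated fatty acids need auxiliary enzymes that move or remove double bonds, and all 3 were called lower in WT and 2 in SIRT5F101L, where 28.1% and 30.7% of all genes were. Eci1, the mitochondrial enoyl-CoA isomerase, was at 38.5, 45.4, 43.6 and 39.6 CPM in Control. It was at 30.6, 29.99, 29.8 and 32.9 CPM in WT and at 33.7, 29.7, 24.2 and 23.3 CPM in SIRT5F101L. All plasmid libraries lay below Control, and SIRT5F101L had a wider spread than WT. Eci1 had a log2 fold change of -0.44 (SE 0.10, adjusted p 0.00091) in WT and -0.60 (SE 0.10, adjusted p 3.72e-05) in SIRT5F101L. Eci2, the isomerase found in both mitochondria and peroxisomes, was called lower in WT (15.6 ± 1.56 against 19.7 ± 1.27 CPM, log2 fold change -0.34, adjusted p 0.0117). In SIRT5F101L it was at 17.5 ± 2.68 CPM (log2 fold change -0.18, adjusted p 0.163). Other genes, chiefly Gm15287 and Gm15280, hold a copy of 38.1% of its longest transcript. Decr1, the mitochondrial dienoyl-CoA reductase, fell from 36.9 ± 3.50 to 31.5 ± 3.16 and 29.6 ± 2.87 CPM (log2 fold change -0.23 and -0.32, adjusted p 0.0412 and 0.00542), and the call in WT was kept in 14 of 19 alternatives.

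Electrons from the dehydrogenases pass to the electron transfer flavoprotein and on to ubiquinone. Etfa, the α subunit of that flavoprotein, was at 132, 139, 145 and 128 CPM in Control. It was at 84.0, 96.9, 96.4 and 104 CPM in WT and at 105, 76.0, 89.8 and 86.3 CPM in SIRT5F101L. No plasmid library reached the lowest Control library. A copy of 17.5% of its longest transcript lies in Gm15289. Etfa had a log2 fold change of -0.51 (SE 0.08, adjusted p 3.15e-05) in WT and -0.61 (SE 0.08, adjusted p 3.81e-06) in SIRT5F101L. Etfdh, the oxidoreductase that hands these electrons to ubiquinone, was called lower in SIRT5F101L (56.0 ± 3.28 against 62.1 ± 1.39 CPM, log2 fold change -0.15, adjusted p 0.0493). That call was kept in 4 of 19 alternatives, its value was -0.096 with the length trend removed, and in WT Etfdh was at 58.1 ± 3.22 CPM and not called. Etfb, the β subunit, had 1 count in Control replicate 4, 2 counts in SIRT5F101L replicate 1 and 0 counts elsewhere. In the M21 models, 58.2% of its exon bases overlap other models on the same strand, chiefly Gm45233, and the part of that overlap in its count was not tested.

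Among the members grouped under peroxisomal oxidation, which leave out Crot and Eci2 described above, 0 of 3 tested were called in either comparison by edgeR or DESeq2, and 0 had an unadjusted p under 0.05 in edgeR. Of all genes, 56.8% and 60.7% were called. Acox3, the oxidase of branched chains, was at 47.6 ± 3.84, 44.0 ± 2.44 and 46.1 ± 1.71 CPM. Ehhadh, the peroxisomal bifunctional enzyme, was at 6.43 to 7.97 CPM in Control, 5.52 to 7.75 in WT and 5.52 to 7.53 in SIRT5F101L. Hsd17b4, the second bifunctional enzyme, was the most abundant by CPM of the 3, at 88.3 ± 5.85, 94.1 ± 2.93 and 92.5 ± 5.63. Their log2 fold changes ran from -0.15 to 0.09. With each library's trend on transcript length removed, Acox3 was called lower in WT, at -0.18, and was at -0.14 in SIRT5F101L (adjusted p 0.0764). With SIRT5F101L replicate 1 left out as well, it was called there too, at -0.17 (adjusted p 0.037). Acaa1a, a peroxisomal thiolase, was listed at 0 in all 12 libraries, as was Myd88, which it overlaps on the opposite strand. Its close copy Acaa1b had counts, with 4.68 ± 0.283 CPM in Control.

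Ppara was measured near the limit, with 11, 23, 10 and 18 counts in Control, 4, 7, 17 and 9 in WT and 9, 13, 17 and 4 in SIRT5F101L. The groups overlapped. Ppara had a log2 fold change of -0.69 in WT (95% interval -1.66 to 0.29, adjusted p 0.219) and -0.57 in SIRT5F101L (95% interval -1.53 to 0.38, adjusted p 0.291), so a change was not detectable at this depth.

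Levels of different genes were compared as mean CPM per kilobase of the principal transcript, taken from GENCODE M21. In Control, Etfa was the highest of the 31 tested members at 97.8, followed by Hadha at 51.3, Echs1 at 42.8, Acadm at 40.6, Hadhb at 39.9 and Acaa2 at 38.9. Neighbours from Echs1 to Acaa2 in that order lay close together. Cpt1a ranked 19 of 31 in Control at 16.3 per kilobase, and stood at 31.1 in WT and 33.1 in SIRT5F101L. Acot2 stood at 26.7, 5.68 and 4.57 per kilobase in the same order. Acadm stood at 40.6, 21.5 and 19.4 per kilobase. Ppara was the lowest, at 0.243 in Control.

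Summed over the tested members, Control libraries held 1593 to 1669 CPM (mean 1644 ± 35.1, SD, n = 4), WT libraries 1488 to 1592 (1526 ± 45.5) and SIRT5F101L libraries 1444 to 1596 (1493 ± 69.5). SIRT5F101L replicate 1 held the 1596, and the rest of its group 1444 to 1468. It was the highest of its group for 17 of 31 members, where it was the highest for 34.1% of all genes. WT replicate 4 was the highest of its group for 19 of 31 members and 26.9% of all genes. SIRT5F101L replicate 1 also differed in how level followed transcript length across genes. Fitted across genes on log2 scales and centred on the mean of the libraries, its slope was -0.0587, while the other SIRT5F101L libraries had slopes of 0.0815 to 0.104. Slopes were -0.0367 to 0.0524 in WT and -0.0678 to -0.0441 in Control. SIRT5F101L replicate 1 thus lay within the Control range, while the rest of its group lay above every Control and WT library. Comparisons with Control therefore also hold this difference in length trend, and its part in the calls was not tested. Counts with the trend removed are given at the end. The part of SIRT5F101L replicate 1 in the comparison of the plasmid groups is given by the values with and without this library.

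Between SIRT5F101L and WT, 0 of 31 members were called by edgeR or by DESeq2, where 0.0421% of all genes were called by edgeR (0.0281% higher and 0.014% lower). In edgeR, 1 member (Acot2) had an unadjusted p under 0.05, against 11.9% of all genes. Groups did not overlap for 0 members and for 4.02% of all genes. Log2 fold changes of members ran from -0.31 to 0.16 with a median of -0.05. Acot2 was the lowest, at -0.31 (95% interval -0.51 to -0.11, adjusted p 0.33). Acsl5 followed at -0.21 (95% interval -0.57 to 0.15). Cpt1a was at 0.09 (95% interval -0.03 to 0.21), Acadm at -0.15 (95% interval -0.32 to 0.03) and Eci2 at 0.16 (95% interval -0.07 to 0.39). A difference that misses the threshold does not show that the groups were alike.

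Without SIRT5F101L replicate 1, 3 of 31 members were called lower in SIRT5F101L than in WT, and 15.2% of all genes were called. Acot2 was at -0.39 on the log2 scale (adjusted p 0.00587), Acadm at -0.24 (adjusted p 0.0199) and Eci1 at -0.27 (adjusted p 0.0379), where Eci1 was at -0.16 (adjusted p 0.524) with all libraries. Each of these was already below Control in WT libraries. Leaving out any other single library called 0 members. With each library's trend on transcript length removed and the same library left out, Acot2 was the 1 member called, at -0.35, among 1203 genes called in all (all genes called, SIRT5F101L against WT).

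**Figure D4:**
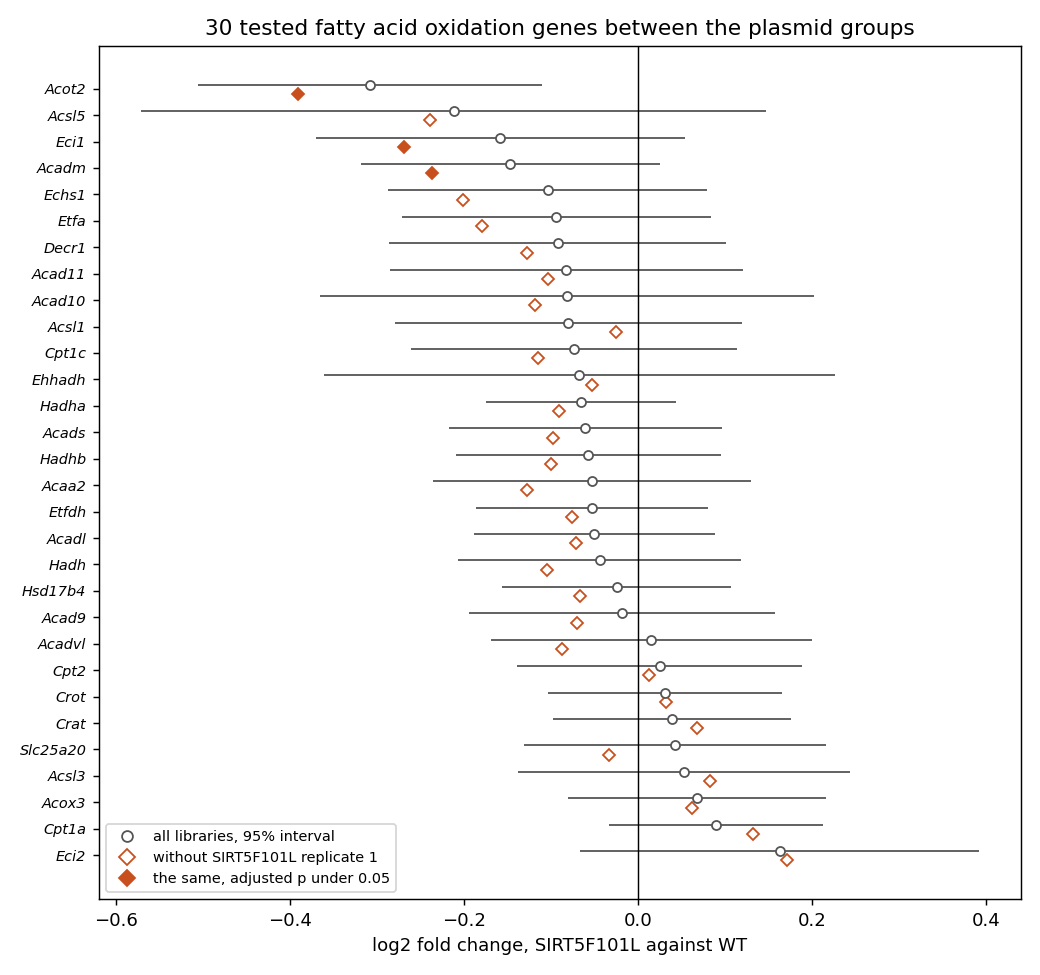
Log2 fold change of SIRT5F101L against WT (x axis) for 30 tested members (y axis), with circles and 95% intervals for all libraries and diamonds for the fit without SIRT5F101L replicate 1. Ppara is left out because its interval is wide. All circles are open, and the diamonds of Acot2, Acadm and Eci1 are filled (adjusted p under 0.05).

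Genes next to the pathway were read from related lists. Over all genes tested, 28.7% rose and 28.1% fell in WT, and 60.7% were called in SIRT5F101L, with 30.7% of all genes falling. No test compared a list with all genes. Among PPAR partners and co-regulators, 5 of 11 tested rose and 3 fell in both comparisons. Ppargc1a, the PGC-1α co-activator of mitochondrial genes, rose from 8.15 ± 1.54 to 19.7 ± 2.31 and 19.3 ± 3.40 CPM (log2 fold change 1.27 and 1.24). Pparg, the PPAR of fat cells, fell from 18.5 ± 0.944 to 4.59 ± 0.468 and 4.69 ± 1.02 CPM (log2 fold change -2.01 and -1.98). The adipocyte marker list, which includes Pparg, summed to 221 to 245 CPM in Control, 88.9 to 95.8 in WT and 92.2 to 108 in SIRT5F101L. Most of that sum was Lpl, lipoprotein lipase, which fell from 191 ± 9.79 to 55.6 ± 1.26 and 64.9 ± 5.50 CPM. Fabp4, the fatty acid binding protein of fat cells, went the other way, from 24.4 ± 0.959 to 32.0 ± 2.59 and 30.4 ± 5.67 CPM (log2 fold change 0.39 and 0.31, adjusted p 0.00405 and 0.0153). Adipoq, a defining fat cell gene, was at 0.423 CPM in Control, 0 in WT and 0.0484 in SIRT5F101L, and Lep had 1 count in SIRT5F101L replicate 2 and 0 elsewhere.

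Of PPAR target genes, 5 of 10 tested rose in each comparison, while 2 fell in WT and 3 in SIRT5F101L. Angptl4, a secreted inhibitor of lipoprotein lipase, rose from 18.6 ± 1.40 to 70.7 ± 5.76 and 79.5 ± 12.6 CPM (log2 fold change 1.93 and 2.10). Fgf21, a hormone of fasting, fell, with 38 to 62 counts in Control libraries and 0 to 9 in the plasmid libraries. Cyp4a14 was listed at 0.

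Of genes for fatty acid uptake, storage and lipolysis, 9 of 15 tested rose and 4 fell in WT, and 8 rose and 5 fell in SIRT5F101L. Slc27a1, a fatty acid transport protein, rose from 49.4 ± 3.81 to 99.6 ± 2.97 and 93.7 ± 4.63 CPM (log2 fold change 1.01 and 0.92). Slc27a6, another member of that family, fell, with 28 to 46 counts in Control libraries, 0 to 2 in WT and 1 to 6 in SIRT5F101L. Lipe and G0s2 were listed at 0.

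Of other mitochondrial acyl-CoA, carnitine and ketone genes, 9 of 17 tested fell and 2 rose in WT, and 10 fell and 2 rose in SIRT5F101L. Pccb, the β subunit of propionyl-CoA carboxylase, fell from 53.6 ± 4.02 to 22.2 ± 2.09 and 20.0 ± 1.68 CPM (log2 fold change -1.27 and -1.42). Bdh1, the ketone body dehydrogenase, rose from 1.95 ± 0.639 to 3.86 ± 0.600 and 4.50 ± 0.450 CPM (log2 fold change 0.98 and 1.21). Acot9 was listed at 0.

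Of other peroxisomal lipid enzymes, 6 of 13 tested fell and 3 rose in WT, and 7 fell and 3 rose in SIRT5F101L. Acox2, the oxidase of bile acid intermediates, fell from 5.81 ± 1.25 to 1.57 ± 0.224 and 1.52 ± 0.233 CPM (log2 fold change -1.89 and -1.94). Acaa1b fell by 1.97 and 1.64 on the log2 scale. Abcd2, an importer of very long chains, rose from 10.9 ± 1.30 to 22.3 ± 0.702 and 21.0 ± 0.884 CPM (log2 fold change 1.03 and 0.95). Hacl1 was listed at 0.

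Of peroxisome assembly genes, 2 of 14 tested rose and 5 fell in WT, and 0 rose and 6 fell in SIRT5F101L. Pex6, an ATPase of receptor recycling, fell from 66.0 ± 2.05 to 48.4 ± 0.716 and 45.0 ± 6.61 CPM (log2 fold change -0.45 and -0.55). Pex11a, a factor of peroxisome division, fell in SIRT5F101L from 10.4 ± 0.986 to 6.44 ± 0.776 CPM (log2 fold change -0.68). Its difference between SIRT5F101L and WT was -0.53 and did not pass the test (adjusted p 0.217). Pex26, the anchor of that ATPase, was higher in WT at 15.5 ± 1.09 against 12.9 ± 1.12 CPM (log2 fold change 0.27, adjusted p 0.0279).

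Fatty acid synthesis had 4 of 14 tested genes higher and 5 lower in WT, and 5 higher and 7 lower in SIRT5F101L. Scd1, the Δ9 desaturase, rose from 203 ± 13.7 to 345 ± 11.6 and 363 ± 21.3 CPM (log2 fold change 0.76 and 0.84). Fads1, the Δ5 desaturase, fell from 175 ± 6.02 to 125 ± 1.76 and 119 ± 5.90 CPM (log2 fold change -0.49 and -0.56).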

How the data were processed

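Poly(A)-selected RNA from 12 libraries was sequenced as 150 bp paired-end reads, per the labels' protocols. The authors deposited whole-number counts per Ensembl gene for each library. FastQC 0.11.9, HISAT2 2.2.1, HTSeq 2.0.2, DESeq2 1.38.3 and the build GRCm39 are named in the submitters' processing notes. The strand setting is not given in the sources used here.

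Counts were fitted with edgeR 4.0.16 (R 4.3.3): TMM scaling, its default filter by group, 1 mean per group, quasi-likelihood F tests with 9 residual degrees of freedom, and Benjamini-Hochberg adjustment over 14253 genes. A gene was called at an adjusted p under 0.05, in 2-sided tests. The standard error is the log2 fold change divided by the square root of F. Totals ran from 15095357 to 24242139 counts. CPM are TMM-scaled, given as mean ± SD over 4 libraries in the order Control, WT, SIRT5F101L. Alternatives were RLE scaling, other filters, fits of the 8 libraries compared, DESeq2, each library left out, and, chosen after seeing the data, a transcript length offset. Transcript lengths and overlaps came from GENCODE M21 (GRCm38).

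The members and lists were chosen with earlier results of these data known. All members are named. Values in every library are given for members called with an absolute log2 fold change of at least 0.5 for either plasmid, and for Cpt1a, Cpt1b, Cpt1c and Ppara. From each related list, the called gene with the largest change in each direction is named. Mmut was not matched to an identifier. The script was tested on simulated data.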

Additional observations from a re-analysis of the deposited data

Results flagged for a closer look

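In each group of 4 libraries, the levels of the tested members, of Sirt5 and of the members' sum were screened for a library whose gap to the others was large for the group's range (Dixon's 95% critical value). Of 99 groups, 7 had such a library, where chance gives about 4.95. Acsl3 was at 18.8 CPM in WT replicate 2 and at 24.3 to 25.2 in the other WT libraries. Crot was at 49.4 CPM in WT replicate 4, against 44.6 to 45.1. Acads was at 37.1 CPM in WT replicate 1, against 40.4 to 40.8. Acox3 stood apart in 2 groups, at 53.3 CPM in Control replicate 4, against 45.3 to 46.6, and at 47.6 CPM in WT replicate 1, against 42.4 to 43.2. Sirt5 was at 1.23 CPM in SIRT5F101L replicate 2, against 0.481 to 0.601. The members summed to 1596 CPM in SIRT5F101L replicate 1, against 1444 to 1468.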

How the results depend on the processing

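Members called against Control numbered 12 to 17 in WT and 13 to 16 in SIRT5F101L under the alternatives without a length offset (7549 to 8747 and 8030 to 9179 of all genes), and 21 and 19 with it (20 in SIRT5F101L with its replicate 1 left out too). With that offset, all genes called, WT against Control, numbered 8323, and all genes called, SIRT5F101L against Control, 8600 (8837 with replicate 1 left out too). In WT, the share of members called was then above that of all genes, where it was below in the reported fit. In SIRT5F101L the shares were close with the offset. Members called in SIRT5F101L against WT numbered 0 to 3 with single libraries left out, and 1 with the offset and replicate 1 left out. For all genes called, SIRT5F101L against WT, the count of 6 became 354 with no filter, 2 in the 8 libraries compared, 39 with DESeq2, 24 with the offset, 1203 with the offset and replicate 1 left out, and 0 to 2212 with single libraries left out. The cause was not tested. Values that changed sign were small or imprecise, and none was called. In WT these were Acads (0.0057 with the offset, 0.0056 with replicate 1 left out too), Hadh (0.036 with the offset, either way) and, with single libraries left out, Acsl1 (-0.086 to 0.024), Hadh (-0.069 to 0.0084) and Ehhadh (-0.15 to 0.010). In SIRT5F101L against Control these were Hadh (0.027 with the offset) and, with single libraries left out, Acox3 (-0.072 to 0.0091) and Sirt5 (-0.31 to 0.18). In SIRT5F101L against WT, with single libraries left out, 10 of 31 members changed sign: Ppara (-0.17 to 0.61) and, within -0.15 to 0.095, Acsl3, Cpt2, Slc25a20, Acadvl, Acad9, Acad10, Hadhb, Hadh and Acaa2. The ratio Hadha/Hadhb did too (-0.067 to 0.018). Depth limits Ppara and Sirt5. No paired analysis was possible because the labels give no replicate numbers, and those used here were assigned within each group by accession order.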
